A study of Mus musculus with 6 samples.

Results

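The 42 genes described here encode the machinery that separates the chromosomes at mitosis: cyclins and kinases that drive entry, kinetochore proteins that bind chromosomes to microtubules, the motors of the spindle, proteins of the spindle midzone and cytokinesis, and condensin. They were listed by role, with earlier results of these data known, so their shares are not independent of these data. Their values were found through the Ensembl gene IDs of the expression tables with the mouse annotation GENCODE M21. All 42 were found among 55536 IDs, and all 42 were among the 11120 genes with enough signal to be tested. They were measured in RAW264.7 cells, a mouse macrophage line kept in culture, which the cytokine RANKL can drive towards osteoclasts, cells that resorb bone.

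The libraries fall into 3 with RANKL plus etelcalcetide and 3 with RANKL alone. Both groups received RANKL at 50 ng/mL. The first group also had 4 µM of etelcalcetide, a peptide that acts on the calcium-sensing receptor as an agonist. The study compares the drug with its absence, and no library from cells without RANKL was analysed here. The sample labels give 5, 6 and 7 days of incubation for replicates 1, 2 and 3 in both groups, whereas the series text gives 5 days for all. A single line stands for macrophages, and since no label says whether replicates came from separate cultures, the p-values cover only the spread among these libraries.

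A cell that divides builds a bipolar spindle from microtubules, and each chromosome attaches to it through a pair of kinetochores. Kinases such as Cdk1, Aurora and Polo-like kinase 1 set the order of events, and the spindle checkpoint holds back the anaphase-promoting complex (APC/C) until every kinetochore is attached. The APC/C then marks cyclin B and securin for destruction, the chromosomes part, and the cell is pinched in at the spindle midzone. Many of these genes are transcribed late in the cell cycle through promoter elements called CHR (cell cycle genes homology region) and CCAAT boxes, which the DREAM, MYBL2, FOXM1 and NF-Y proteins bind. Osteoclast formation is known to follow a phase of division of the precursors and to end in fused cells that no longer divide.

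Promoter sequence was available for 35 of the 42 genes in RefSeq windows on GRCm38.p6, which run from 250 bases before to 50 bases after each start. Stretches of 120 bases directly upstream of the start are printed for the mitotic regulators Ccnb1, Plk1, Cdc20 and Cdk1, and for Cenpa and Kif18a, which had the highest and the lowest fold change of the 42. They are given 5′ to 3′ on the gene's strand, with the CHR letters TTTGAA or TTTAAA and the letters CCAAT in capitals, on either strand, so that CCAAT on the other strand reads ATTGG.
Ccnb1, chr13:100786487-100786606, minus strand: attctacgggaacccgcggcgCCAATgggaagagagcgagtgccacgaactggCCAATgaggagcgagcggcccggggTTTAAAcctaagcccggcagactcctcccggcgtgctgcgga
Plk1, chr7:122159315-122159434, plus strand: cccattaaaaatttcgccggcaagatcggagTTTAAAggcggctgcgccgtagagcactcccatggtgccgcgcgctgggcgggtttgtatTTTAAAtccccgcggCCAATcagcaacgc
Cdc20, chr4:118437344-118437463, minus strand: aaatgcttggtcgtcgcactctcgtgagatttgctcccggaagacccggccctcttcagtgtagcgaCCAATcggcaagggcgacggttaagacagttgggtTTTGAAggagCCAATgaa
Cdk1, chr10:69352913-69353032, minus strand: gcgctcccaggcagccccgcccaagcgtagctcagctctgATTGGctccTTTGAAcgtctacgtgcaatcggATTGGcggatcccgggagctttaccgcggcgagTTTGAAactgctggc
Cenpa, chr5:30666766-30666885, plus strand: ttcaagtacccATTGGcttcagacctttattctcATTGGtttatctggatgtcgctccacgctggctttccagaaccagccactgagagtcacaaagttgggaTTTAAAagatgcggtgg
Kif18a, chr2:109280618-109280737, plus strand: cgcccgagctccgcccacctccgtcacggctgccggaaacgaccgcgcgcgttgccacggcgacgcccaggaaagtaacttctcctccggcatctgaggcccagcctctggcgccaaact

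In the whole windows TTTGAA was found in 27 of the 35 genes (77.1%), against 14.4% of the 8357 tested genes with a window and 20.2% of all 27025 genes with one. TTTAAA stood in 25.7% of the 35, against 10.7% of tested genes. CCAAT stood in 74.3% of the 35, against 43.4% of tested genes. Both elements together, a CHR sequence of either form and CCAAT, were present in 71.4% of the 35 and in 9.15% of tested genes. Cdc20 carries TTTGAA from 18 to 13 bases before the start and CCAAT from 53 to 49 and from 8 to 4 bases before it. Cdk1 has TTTGAA in 2 places, from 71 to 66 and from 15 to 10 bases before the start. Ccnb1 has TTTAAA from 42 to 37 bases before it, and Plk1 has that form from 89 to 84 and from 29 to 24 bases before it, with a TTTGAA downstream of its start. The Kif18a window holds none of the 3 motifs. The 27 genes with TTTGAA had a median log2 fold change of -0.31 and the 8 without it one of -0.45. Of these 8, Birc5, Ccnb1 and Cenpe carry TTTAAA, so the split does not separate genes with and without a CHR sequence. A relation of the motifs to the fold change was not tested. A motif is a match of letters only, and no binding was measured.

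Levels are deposited FPKM, that is reads divided by the exon length of the gene and the depth of the library. For the test they were divided by a scaling factor per library (trimmed mean of M values), log2(FPKM + 0.1) was fitted with limma over all 11120 genes, and a gene was called changed at a Benjamini-Hochberg adjusted p under 0.05. Log2 fold changes are etelcalcetide plus RANKL over RANKL on that scale. Depth was 13742913 to 16264432 reads per library with etelcalcetide and 14530043 to 15877596 with RANKL alone, and each of the 42 genes had between 102 and 9445 reads in every library. Over all genes 2896 were higher and 2998 lower. Scaling by library totals alone gave 3558 higher and 2272 lower. The etelcalcetide libraries had summed osteoclast marker levels of 206 to 219 FPKM, against 393 to 539 FPKM with RANKL alone. Of the 9 tested markers of that list of 10, 6 were lower (66.7%, against 27.0% of all genes). Acp5 averaged 3.93 ± 0.71 FPKM with etelcalcetide and 115 ± 22.1 FPKM with RANKL, and Ctsk averaged 0.191 ± 0.057 FPKM and 94.5 ± 23.1 FPKM (SD, n = 3 each). Nfatc1, a key transcription factor of osteoclast formation, averaged 22.1 ± 1.15 FPKM with etelcalcetide and 52.8 ± 6.46 FPKM with RANKL. The osteoclast markers Mmp9, Dcstamp and Itgb3 did not pass, with log2 fold changes of -0.03, -0.001 and 0.21. Mmp9 alone had 154 to 169 FPKM with etelcalcetide and 134 to 173 FPKM with RANKL, a large part of the sums. Macrophage markers summed to 3137 to 3317 FPKM with etelcalcetide and 2702 to 2866 FPKM with RANKL. Most of these sums came from Lyz2, Cd68 and Csf1r, which did not pass, with log2 fold changes of -0.01, 0.11 and 0.10. Lyz2 alone averaged 1830 FPKM with etelcalcetide and 1748 FPKM with RANKL. Of 7 tested macrophage markers 4 were higher (57.1%, against 26.0% of all genes), as were 2 of 3 tested dendritic cell markers (66.7%). The defining markers of lymphocytes, fibroblasts, endothelium and epithelium were too low to test, with Cd3e, Krt8 and Cdh1 at 0 in every library. Not all were absent. Pecam1, listed for endothelium, had 0.0416, 0.0117 and 0.0691 FPKM with etelcalcetide and 0.442, 0.496 and 0.685 FPKM with RANKL. Runx2, listed for fibroblasts or osteoblasts, averaged 0.199 FPKM with etelcalcetide and 0.202 FPKM with RANKL. The part of the osteoclast and macrophage markers in the results on mitotic genes was not tested.

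Replicate 1 was the highest library of its group for most of the mitotic genes, in 33 of the 42 with etelcalcetide and in 28 of the 42 with RANKL. Over the 42 genes the median log2 level relative to the mean of all 6 libraries was -0.08, -0.17 and -0.20 in etelcalcetide replicates 1, 2 and 3, and 0.30, 0.14 and 0.07 in RANKL replicates 1, 2 and 3. In both groups it was thus lower where the sample labels give more days. RANKL replicate 1 stood farthest apart, and in 15 of the 42 genes it lay more than 0.3 above the mean of its group's replicates 2 and 3 on the log2 scale. Its excess moved with the GC content of the transcript, with a Spearman rho over the 42 genes of -0.86 and over all 11120 genes of -0.51. In the lowest of 4 equal bins of genes by GC content, its median excess was 0.44 for the mitotic genes and 0.18 for all genes. In the highest bin it was -0.11 for both. Shares over all genes are not given here for the counts of 33, 28 and 15. The group difference moved with GC content as well, with a rho of 0.54 over the 42 genes and 0.39 over all genes. The points of these correlations share the same 6 libraries. Counts are therefore given also without that library, and after each library's trend with GC content was subtracted, an adjustment chosen after the data were seen. Median GC content was 46.2% for the 42 genes and 50.0% for all genes tested.

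With etelcalcetide 27 of the 42 genes were lower (64.3%), against a background of 27.0% of all genes tested. Cenpa alone was higher (background 26.0%), and 14 did not pass. Scaling by library totals alone gave 21 lower (background 20.4%) and 1 higher (background 32.0%). The median log2 fold change of the 42 was -0.33, and that of all genes was -0.01. The range ran from -0.96 for Kif18a to 0.22 for Cenpa, and 37 of the 42 values were below 0, against 50.9% of all genes. Most differences were small: Kif18a, Bub1 and Nuf2 were the 3 genes at least 1.5-fold lower, while 8.08% of all genes were called and at least 1.5-fold lower. Kif18a was the 1 gene of the set still past that size without replicate 1 of the RANKL group, and again after the GC adjustment. Without replicate 1 of the RANKL group 26 were lower against a background of 24.1%, none was higher, and the median was -0.24. That background is over 10929 genes, since the filter still asked for 3 libraries and genes present only with RANKL dropped out. It is thus not over the same genes as the 27.0%. After the GC adjustment 24 were lower against a background of 25.8%, 1 was higher against one of 24.8%, and the median was -0.24. Of the 28 genes called, 23 kept their call under that adjustment, and 13 of these moved by more than 1.5 times. Moved towards 0 were the log2 fold changes of Ccnb1 (-0.21), Cdk1 (-0.14), Bub1 (-0.36), Ttk (-0.31), Mad2l1 (-0.24), Nuf2 (-0.35), Spc25 (-0.29), Kif23 (-0.26), Prc1 (-0.23) and Ect2 (-0.29). Moved away from 0 were those of Cdc20 (-0.31), Ube2c (-0.34) and Incenp (-0.33). RNA from a whole dish cannot tell fewer cells in mitosis from less RNA per mitotic cell.

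**Figure D1:**
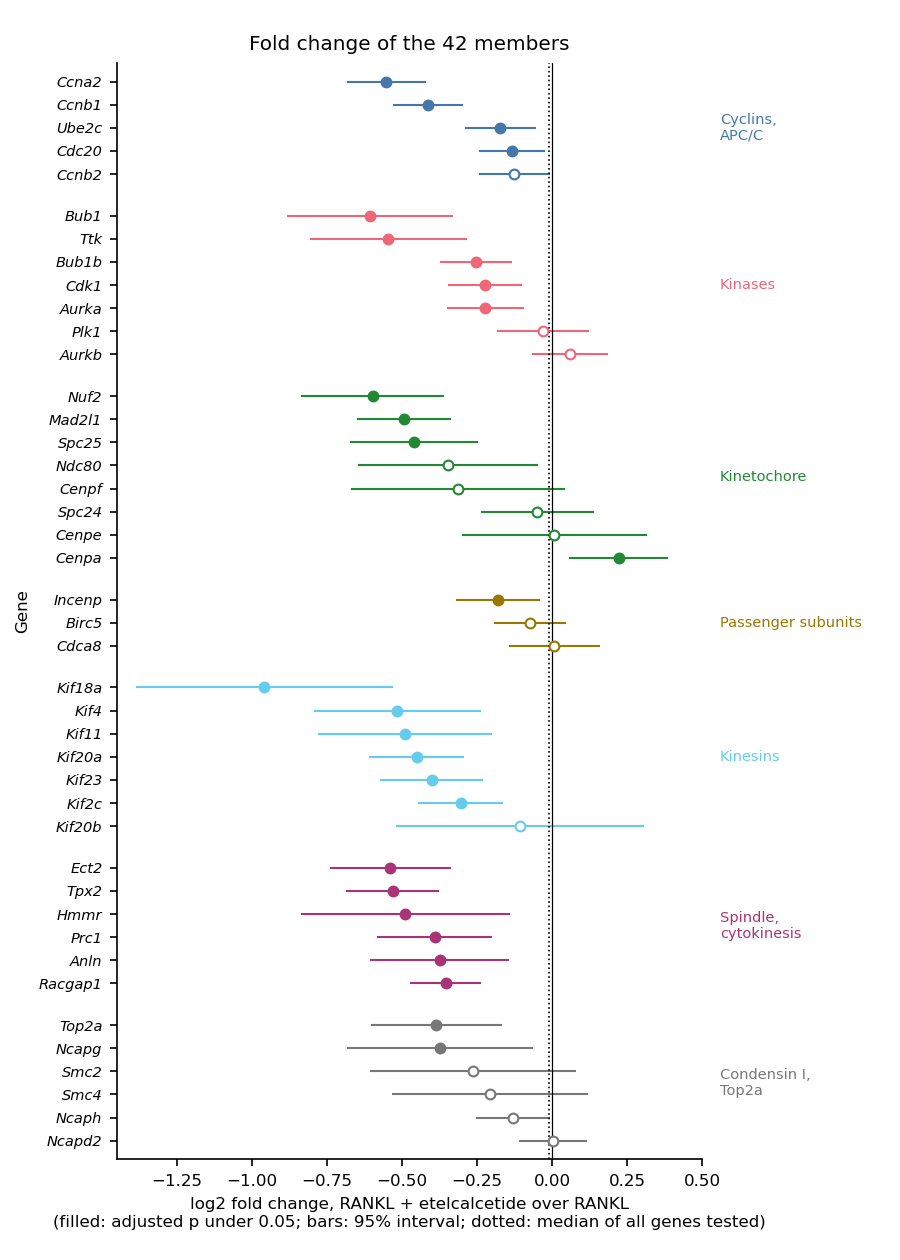
Log2 fold change, RANKL plus etelcalcetide over RANKL, of each of the 42 genes, grouped by role, with 95% intervals. Filled points passed an adjusted p of 0.05, and the dotted line is the median of all genes tested (-0.01). Kif18a lies lowest at -0.96, and Cenpa is the single filled point right of 0.

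The summed level of the 42 genes was 1128, 1045 and 1049 FPKM in the etelcalcetide libraries and 1244, 1198 and 1178 FPKM in the RANKL libraries. The groups did not overlap, and the gap between the nearest libraries was about as wide as the SDs (1074 ± 46.8 FPKM with etelcalcetide and 1207 ± 34.2 FPKM with RANKL, n = 3 each). As a share of reads they made up 0.497%, 0.458% and 0.458% with etelcalcetide, against 0.575%, 0.534% and 0.517% with RANKL. Taken gene by gene on the deposited values, the groups did not overlap for 22 genes that were lower with etelcalcetide (background 24.5% of all genes), nor for Aurkb and Cenpa, which were higher (background 36.7%). On the scaled values they did not overlap for 29 lower genes (background 31.2%) and for Cenpa, which was higher (background 30.7%). The summed levels of cyclins, kinases, kinesins and of the spindle and cytokinesis genes also did not overlap between groups. Those of the kinetochore genes, the passenger subunits and condensin I with Top2a did.

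**Figure D2:**
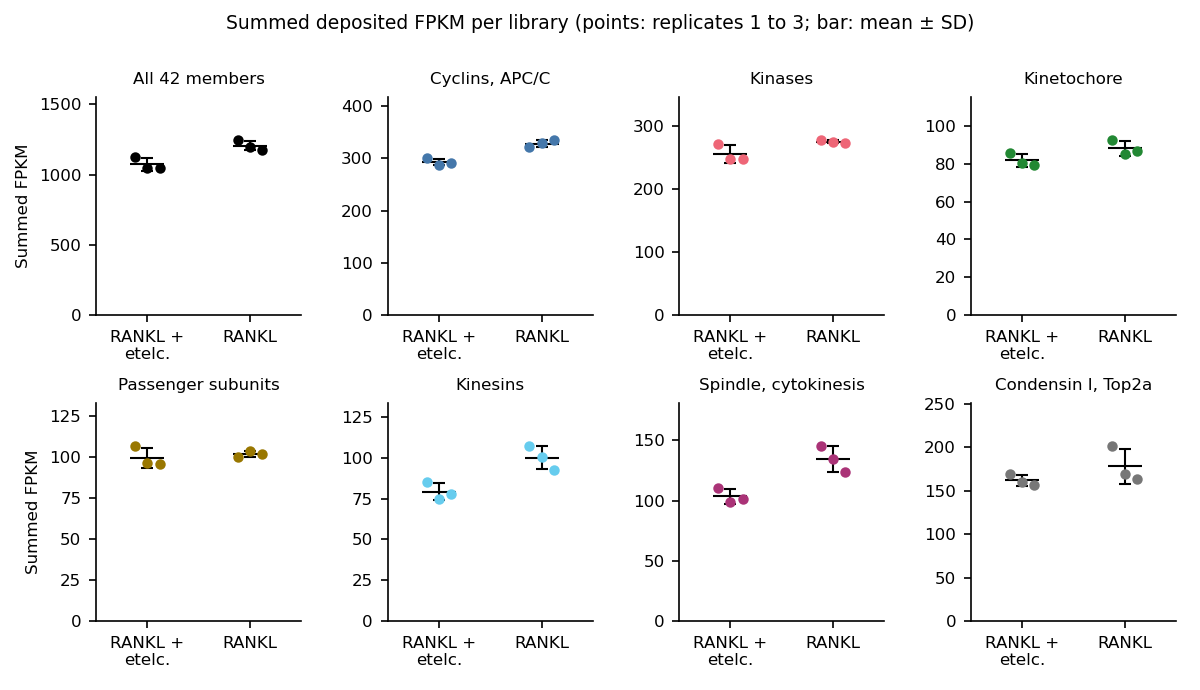
Summed deposited FPKM of the 42 genes and of each group by role, 1 point per library, with mean and SD, for RANKL plus etelcalcetide (left) and RANKL (right). The sums of all 42 are 1045 to 1128 with etelcalcetide and 1178 to 1244 with RANKL, while those of the kinetochore genes, passenger subunits and condensin I with Top2a overlap.

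The cyclins and the APC/C partners were lower for 4 of 5 genes (80.0%, against 27.0% of all genes), with a median log2 fold change of -0.17. Cyclin A2 (Ccna2), which acts in S phase and up to early mitosis, had 42.2, 38.5 and 37.8 FPKM with etelcalcetide, against 56.4, 54.8 and 53.3 FPKM with RANKL. Ccnb1, the cyclin that activates Cdk1 at mitotic entry, had 40.0, 36.4 and 38.0 FPKM with etelcalcetide, against 49.3, 46.9 and 48.0 FPKM with RANKL. In both cyclins every etelcalcetide library was below every RANKL library. Ccna2 fell by 31.8% (log2 fold change -0.55, SE 0.058, adjusted p from limma = 8.08e-05) and Ccnb1 fell by 24.9% (-0.41, SE 0.051, adjusted p = 0.000216). Cyclin B2 (Ccnb2), the other mitotic B-type cyclin, had 77.7, 79.3 and 79.3 FPKM with etelcalcetide and 76.9, 82.9 and 84.5 FPKM with RANKL, so its groups overlapped. Its adjusted p was 0.0695, with a 95% interval of the log2 fold change from -0.24 to -0.01. Without replicate 1 of the RANKL group it was -0.17 (adjusted p = 0.0187, over all alternatives 0.0187 to 0.485).

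Cdc20 and Ube2c work with the APC/C, Cdc20 as the activator that the checkpoint blocks and Ube2c as the enzyme that hands on ubiquitin. Their differences were small. Cdc20 had 68.5, 66.4 and 68.0 FPKM with etelcalcetide and 68.2, 68.8 and 73.7 FPKM with RANKL, with a log2 fold change of -0.13 (adjusted p = 0.0425). The groups overlapped on the deposited values. Ube2c had 71.4, 66.9 and 68.3 FPKM with etelcalcetide, against 69.9, 75.7 and 74.9 FPKM with RANKL, with a log2 fold change of -0.17 (adjusted p = 0.0208), and 22.8% of its exon length is shared with other genes. The call on Cdc20 was lost without any 1 of the etelcalcetide libraries or RANKL replicates 2 or 3 (adjusted p 0.0791 to 0.0981), and over all alternatives its adjusted p ran from 0.000196 to 0.401. Ube2c lost its call without etelcalcetide replicate 2 or 3 or RANKL replicate 2 (adjusted p 0.0537 to 0.082, over all alternatives 0.000366 to 0.172).

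Of the 7 kinases 5 were lower (71.4%, against 27.0% of all genes), with a median log2 fold change of -0.22. The checkpoint kinases Bub1, Ttk and Bub1b had the most negative fold changes among them. Bub1, which is recruited to unattached kinetochores, had 16.5, 14.1 and 14.1 FPKM with etelcalcetide, against 26.0, 20.8 and 18.3 FPKM with RANKL. Ttk, also called Mps1, which starts checkpoint signalling, had 4.78, 4.79 and 4.06 FPKM with etelcalcetide, against 7.33, 5.90 and 5.79 FPKM with RANKL. The groups did not overlap for either kinase, and replicate 1 was the highest RANKL library in both. Bub1 fell by 34.3% (log2 fold change -0.61, SE 0.12, adjusted p = 0.00301) and Ttk fell by 31.5% (-0.55, SE 0.12, adjusted p = 0.00403). Without replicate 1 of the RANKL group the log2 fold changes were -0.47 for Bub1 and -0.44 for Ttk, and both still passed. Bub1b (BubR1), part of the complex that inhibits the APC/C, had 69.8, 62.5 and 64.4 FPKM with etelcalcetide, against 75.8, 72.5 and 73.3 FPKM with RANKL, and fell by 16.1% (adjusted p = 0.00388). With Mad2l1, described with the kinetochore genes, all 4 checkpoint genes of the set were lower, against 27.0% of all genes. Mad and Bub genes outside the set were mixed. Bub3 was lower at -0.17 (adjusted p = 0.0237), and Mad1l1 did not pass at -0.06 (adjusted p = 0.483). Mad2l1bp was higher at 0.50 (adjusted p = 0.00281).

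Cdk1, the kinase that cyclin B activates, had 34.9, 32.6 and 31.7 FPKM with etelcalcetide, against 36.1, 36.3 and 37.3 FPKM with RANKL. It fell by 14.4% (adjusted p = 0.00767). Aurora A (Aurka), the kinase of spindle poles, had 50.1, 46.7 and 46.1 FPKM with etelcalcetide, against 50.5, 54.7 and 52.6 FPKM with RANKL, and fell by 14.3% (adjusted p = 0.00928). Both kinases were lower in every etelcalcetide library than in any RANKL library. Scaling by library totals alone left Cdk1 with an adjusted p of 0.0519 and Aurka with one of 0.0578, against lowest values over all alternatives of 0.00404 and 0.0012.

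The other 2 kinases did not pass. Polo-like kinase 1 (Plk1) had 55.2, 49.0 and 49.5 FPKM with etelcalcetide and 45.9, 51.7 and 50.8 FPKM with RANKL, and the groups overlapped. Its log2 fold change was -0.03 with a 95% interval from -0.18 to 0.12 (adjusted p = 0.745). Aurora B (Aurkb), the kinase of the chromosomal passenger complex, had 40.6, 38.0 and 37.7 FPKM with etelcalcetide, against 36.3, 33.2 and 36.1 FPKM with RANKL. The deposited values did not overlap, with etelcalcetide above, but the scaled log2 fold change was 0.06 with an interval from -0.07 to 0.19 (adjusted p = 0.394). After the GC adjustment Plk1 was at -0.21 (adjusted p = 0.0182, over all alternatives up to 0.957) and Aurkb at -0.04.

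The 8 kinetochore and centromere genes were mixed, with a median log2 fold change of -0.33. Of these 3 were lower (37.5%, against 27.0% of all genes), 1 was higher (12.5%, against 26.0%) and 4 did not pass. The Ndc80 complex, which holds the microtubule end, has 4 subunits in the set. Nuf2 had 8.68, 7.69 and 8.18 FPKM with etelcalcetide, against 13.5, 11.9 and 10.1 FPKM with RANKL, and Spc25 had 8.93, 6.78 and 8.18 FPKM against 10.4, 10.3 and 10.4 FPKM. Their groups did not overlap. Nuf2 fell by 33.9% (log2 fold change -0.60, SE 0.11, adjusted p = 0.00147) and Spc25 fell by 27.3% (-0.46, SE 0.094, adjusted p = 0.00317). Ndc80 itself had 3.90, 3.06 and 3.66 FPKM with etelcalcetide and 5.00, 4.22 and 3.69 FPKM with RANKL, with a log2 fold change of -0.35 (adjusted p = 0.0516). Spc24 had 20.7, 20.8 and 18.3 FPKM with etelcalcetide and 18.5, 18.4 and 21.7 FPKM with RANKL, with a log2 fold change of -0.05 and an interval from -0.24 to 0.14. So 2 of the 4 subunits passed and 2 overlapped between groups. Without RANKL replicate 3 Ndc80 passed at -0.45 (adjusted p = 0.0153, over all alternatives up to 0.283). The median of the 8 genes was -0.19 without RANKL replicate 1 and -0.46 without RANKL replicate 3.

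Mad2l1, the Mad2 protein that binds Cdc20 when kinetochores are unattached, had 11.0, 9.95 and 11.1 FPKM with etelcalcetide, against 15.1, 14.1 and 13.5 FPKM with RANKL. It fell by 28.9% (log2 fold change -0.49, SE 0.069, adjusted p = 0.000434), and the groups did not overlap. Cenpa, the histone H3 variant that marks centromeres, had 22.9, 21.8 and 20.6 FPKM with etelcalcetide, against 17.3, 16.5 and 19.3 FPKM with RANKL. It was the single gene of the set called higher, by 16.6% (log2 fold change 0.22, SE 0.073, adjusted p = 0.0301). Every etelcalcetide library was above every RANKL library, yet the call was lost without etelcalcetide replicate 1 or 2 or RANKL replicate 1 or 2 (adjusted p 0.0713 to 0.108, over all alternatives 0.00707 to 0.108). The motor Cenpe had 6.10, 6.53 and 5.70 FPKM with etelcalcetide and 7.14, 5.44 and 4.87 FPKM with RANKL, and the large kinetochore protein Cenpf had 3.44, 3.98 and 3.70 FPKM against 5.58, 4.30 and 3.49 FPKM. In both genes the RANKL libraries spread widely and overlapped the etelcalcetide values, with replicate 1 the highest. Cenpf passed without RANKL replicate 3 (-0.48, adjusted p = 0.0141, over all alternatives up to 0.608).

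The chromosomal passenger complex corrects faulty attachments and later moves to the midzone. Of its 3 non-kinase subunits 1 was lower (33.3%, against 27.0% of all genes), with a median log2 fold change of -0.07. Incenp, the scaffold, had 56.0, 51.2 and 48.9 FPKM with etelcalcetide and 54.8, 57.4 and 54.8 FPKM with RANKL, with a log2 fold change of -0.18 (adjusted p = 0.0362). It lost its call without etelcalcetide replicate 2 or 3 or RANKL replicate 1 or 2 (adjusted p 0.0514 to 0.119, over all alternatives 0.00273 to 0.198). Survivin (Birc5) had 28.7, 26.1 and 27.3 FPKM with etelcalcetide and 26.7, 27.6 and 27.5 FPKM with RANKL. Borealin (Cdca8) had 21.8, 18.8 and 19.3 FPKM with etelcalcetide and 18.4, 18.4 and 19.5 FPKM with RANKL. Neither passed, with 95% intervals of the log2 fold change from -0.19 to 0.05 for Birc5 and from -0.14 to 0.16 for Cdca8. With Aurkb counted in, 1 of the 4 subunits of the complex was called, a share near that of all genes lower (27.0%).

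Of the 7 kinesins 6 were lower (85.7%, against 27.0% of all genes), with a median log2 fold change of -0.45. Kif18a, a motor at microtubule plus ends that dampens chromosome movements, had 0.758, 0.755 and 0.682 FPKM with etelcalcetide, against 1.88, 1.35 and 1.17 FPKM with RANKL. This was the lowest expressed gene of the set. It fell by 48.6% (log2 fold change -0.96, SE 0.19, adjusted p = 0.00268), or -0.78 without RANKL replicate 1, and it passed in each of the 16 alternatives run. Kif11 (Eg5), which pushes the spindle poles apart, had 11.4, 9.72 and 9.81 FPKM with etelcalcetide, against 17.0, 12.3 and 12.3 FPKM with RANKL (log2 fold change -0.49, adjusted p = 0.011). The chromokinesin Kif4 had 6.14, 5.40 and 6.23 FPKM with etelcalcetide, against 9.28, 8.43 and 6.63 FPKM with RANKL (-0.52, adjusted p = 0.00711). Replicate 1 was the highest RANKL library in all 3. After the GC adjustment Kif11 was at -0.24 with an adjusted p of 0.0545, the highest over its alternatives (lowest 0.00144).

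The remaining kinesins, of the midzone, of cytokinesis and of centromeres, were also lower, with 1 exception. Kif20a (MKLP2), which carries the passenger complex to the midzone, had 26.3, 23.0 and 24.2 FPKM with etelcalcetide, against 30.6, 34.1 and 30.6 FPKM with RANKL, and fell by 26.9% (adjusted p = 0.000716). Other genes overlap 29.3% of its exon length. Kif23 (MKLP1) had 16.7, 14.5 and 15.6 FPKM with etelcalcetide, against 21.1, 19.6 and 18.0 FPKM with RANKL, and fell by 24.3% (adjusted p = 0.00211). Kif2c (MCAK), which takes microtubules apart at centromeres, had 18.8, 16.2 and 17.1 FPKM with etelcalcetide, against 20.5, 20.1 and 20.3 FPKM with RANKL, and fell by 19.0% (adjusted p = 0.00332). In these 3 genes no etelcalcetide library reached the lowest RANKL library. Kif20b, a second motor of the cytokinetic furrow, had 4.90, 5.25 and 4.38 FPKM with etelcalcetide and 6.73, 4.64 and 3.84 FPKM with RANKL. Its groups overlapped (log2 fold change -0.11, 95% interval from -0.52 to 0.31), and without RANKL replicate 1 it was at 0.11.

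All 6 genes of spindle assembly, midzone and cytokinesis were lower, against 27.0% of all genes, with a median log2 fold change of -0.44. Tpx2, which activates Aurora A on the spindle, had 37.0, 32.3 and 34.1 FPKM with etelcalcetide, against 49.3, 48.5 and 43.7 FPKM with RANKL. It fell by 30.8% (log2 fold change -0.53, SE 0.068, adjusted p = 0.00026), and the groups were well apart. Ect2, the exchange factor that activates RhoA at the furrow, had 12.5, 11.1 and 11.2 FPKM with etelcalcetide, against 18.2, 15.1 and 14.9 FPKM with RANKL, and fell by 31.2% (-0.54, SE 0.089, adjusted p = 0.00101). Racgap1, the partner of Kif23 in the centralspindlin complex, had 22.6, 21.6 and 21.4 FPKM with etelcalcetide, against 25.9, 26.7 and 26.9 FPKM with RANKL, and fell by 21.8% (adjusted p = 0.000558). Both centralspindlin subunits were thus lower. Prc1, which bundles midzone microtubules, had 12.2, 10.9 and 10.5 FPKM with etelcalcetide, against 14.9, 14.3 and 12.7 FPKM with RANKL (-0.39, adjusted p = 0.00435).

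Anillin (Anln), a scaffold of the contractile ring, had 17.7, 15.7 and 16.2 FPKM with etelcalcetide and 23.5, 20.2 and 17.5 FPKM with RANKL (log2 fold change -0.37, adjusted p = 0.0135). Hmmr, a spindle pole protein also known as a hyaluronan receptor, had 8.30, 7.41 and 7.43 FPKM with etelcalcetide and 13.3, 9.97 and 8.15 FPKM with RANKL (-0.49, adjusted p = 0.0247). These were the genes of the group whose deposited values overlapped between treatments. Hmmr was at -0.30 without RANKL replicate 1 (adjusted p = 0.0432) and lost its call without etelcalcetide replicate 2 or 3 or RANKL replicate 2 (adjusted p 0.0529 to 0.0724, over all alternatives 0.00207 to 0.0942). After the GC adjustment Anln had an adjusted p of 0.0588 and Hmmr one of 0.0942, and 4 of the 6 genes were lower.

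Condensin I, which compacts chromosomes, and topoisomerase II alpha (Top2a), which untangles them, had 2 of 6 genes lower (33.3%, against 27.0% of all genes). Their median log2 fold change was -0.23. Top2a had 50.8, 46.3 and 45.2 FPKM with etelcalcetide, against 68.7, 55.9 and 52.4 FPKM with RANKL, and fell by 23.4% (log2 fold change -0.39, SE 0.097, adjusted p = 0.00907). The condensin subunit Ncapg had 6.42, 5.91 and 5.53 FPKM with etelcalcetide, against 9.23, 6.48 and 6.53 FPKM with RANKL (-0.37, adjusted p = 0.0452). Without RANKL replicate 1 Ncapg was at -0.21 and not called (adjusted p = 0.0854). Its call was lost too without any 1 of the etelcalcetide libraries (adjusted p 0.0624 to 0.136, over all alternatives 0.0141 to 0.288). After the GC adjustment both calls were lost, with Top2a at -0.16 (adjusted p = 0.0727, over all alternatives 0.00135 to 0.0727) and Ncapg at -0.12 (adjusted p = 0.288). The ATPase subunits Smc2 and Smc4 had 12.7 to 15.0 and 24.4 to 25.2 FPKM with etelcalcetide, and 13.4 to 20.9 and 22.2 to 35.5 FPKM with RANKL. In both, RANKL replicate 1 was far above its group's other libraries, which lay close to the etelcalcetide values. Neither passed, with log2 fold changes of -0.26 for Smc2 and -0.21 for Smc4. Without RANKL replicate 1 they were -0.07 (adjusted p = 0.556) and -0.02 (adjusted p = 0.88). Without RANKL replicate 3 both passed, Smc2 at -0.39 (adjusted p = 0.0455, over all alternatives up to 0.918) and Smc4 at -0.36 (adjusted p = 0.0331, up to 0.88).

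Ncapd2 had 43.9 to 46.1 FPKM with etelcalcetide and 40.6 to 43.9 FPKM with RANKL, and Ncaph had 23.8 to 25.6 FPKM with etelcalcetide and 24.7 to 26.3 FPKM with RANKL. Neither of these non-ATPase subunits passed, with 95% intervals from -0.11 to 0.12 for Ncapd2 and from -0.25 to -0.01 for Ncaph. Over all 5 condensin I subunits 1 was lower, against 27.0% of all genes. None was lower without RANKL replicate 1, when the median of the 6 genes was -0.09.

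**Figure D3:**
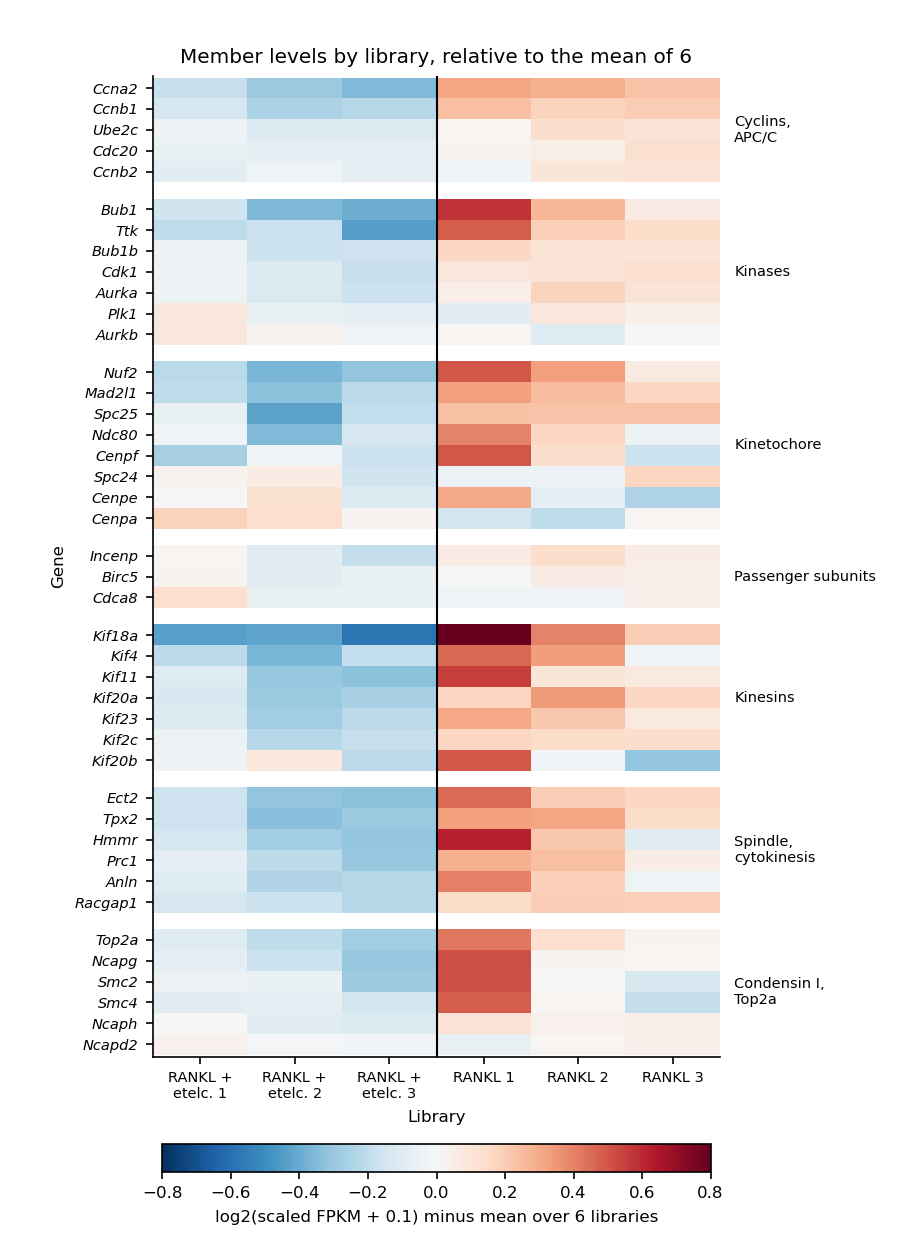
Level of each of the 42 genes in each library, as log2(scaled FPKM + 0.1) minus its mean over the 6 libraries, with blue below and red above the mean. The 3 RANKL plus etelcalcetide libraries are left of the line. RANKL replicate 1 is the most intense column, and Cenpa is the one gene called higher.

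Set side by side, kinesins had 6 of 7 genes lower (85.7%), kinases 5 of 7 (71.4%), kinetochore genes 3 of 8 (37.5%) and condensin I with Top2a 2 of 6 (33.3%), against the background of 27.0%. After the GC adjustment the counts were 5, 6, 3 and 1, against a background of 25.8%. That 1 was Ncapd2 (-0.14, adjusted p = 0.018), which had not passed before, and the 6 kinases include Plk1, which had not passed either. Without RANKL replicate 1 they were 6, 5, 3 and 1, against 24.1%. Medians in the same order were -0.45, -0.22, -0.33 and -0.23, and after the GC adjustment -0.33, -0.28, -0.15 and -0.10. The differences between these groups of genes were not tested.

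Transcript GC content differed along with these groups. Its median was 41.8% for condensin I with Top2a, 43.7% for kinetochore genes, 46.3% for kinesins, 50.4% for kinases and 52.9% for the passenger subunits. With all tested genes cut into 4 equal bins by GC content, 42.4% of the lowest bin were lower with etelcalcetide, and so were 12 of the 18 mitotic genes in it. In the next bins it was 33.6% of all genes and 8 of 12, then 19.2% and 5 of 9, then 12.6% and 2 of 3. The median log2 fold change of the mitotic genes was below that of all genes in each bin, at -0.40 against -0.23 in the lowest and at -0.13 against 0.20 in the highest.

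**Figure D4:**
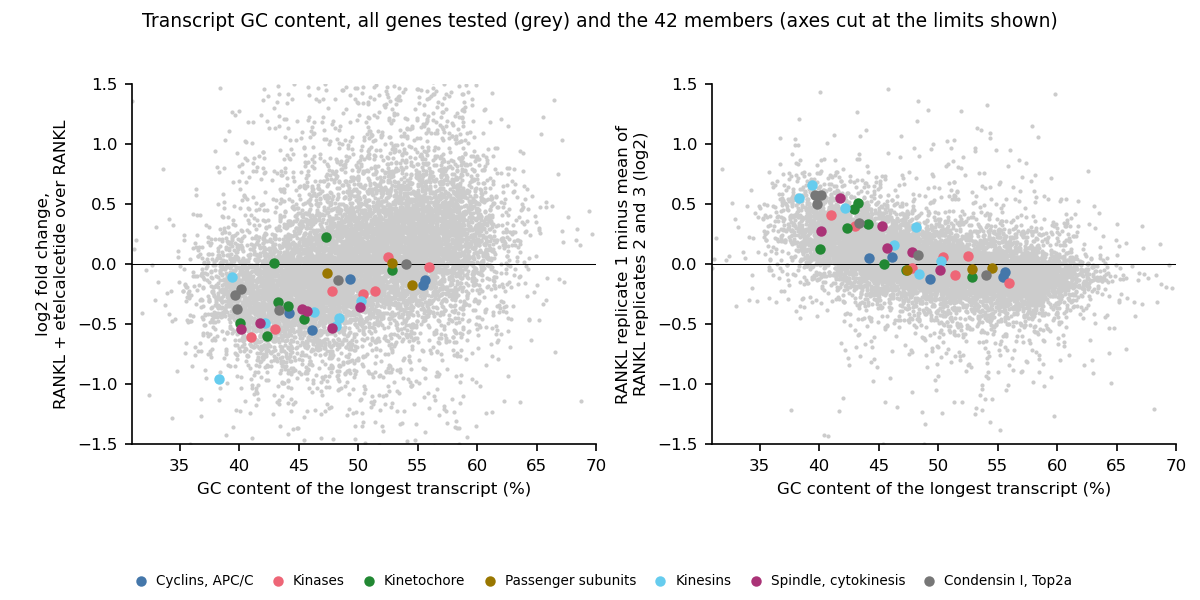
GC content of each gene's longest transcript (protein-coding where one exists) against the log2 fold change, RANKL plus etelcalcetide over RANKL (left), and against the excess of RANKL replicate 1 over the mean of RANKL replicates 2 and 3 (right), for all genes tested (grey) and the 42 mitotic genes (coloured by role). GC-poor genes lie lower on the left and higher on the right, with a Spearman rho over the 42 genes of 0.54 on the left and -0.86 on the right.

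Ratios of partner genes within a library do not depend on the scaling, though partners can differ in GC content. For 8 pairs chosen after the values were seen, 6 had ratios in the etelcalcetide libraries all below those in the RANKL libraries. In each of these 6 the numerator was the gene with the more negative fold change, so the direction follows from the choice of pairs. Ccnb1 over Cdk1 was 1.15, 1.12 and 1.20 with etelcalcetide, against 1.37, 1.29 and 1.29 with RANKL. Tpx2 over Aurka was 0.738, 0.691 and 0.739 with etelcalcetide, against 0.976, 0.886 and 0.831 with RANKL. The difference of the log2 fold changes was -0.19 for Ccnb1 and Cdk1 and -0.31 for Tpx2 and Aurka, and after the GC adjustment -0.07 and -0.15. That adjustment moved it from -0.41 to -0.13 for Spc25 and Spc24, and from -0.27 to 0.12 for Smc2 and Ncapd2. It went from -0.33 to -0.27 for Ccna2 and Cdk1, and from -0.25 to -0.21 for Nuf2 and Ndc80. For Incenp and Aurkb it went from -0.24 to -0.28, and for Racgap1 and Kif23 from 0.05 to -0.11. Nuf2 over Ndc80 averaged 2.32 ± 0.16 with etelcalcetide and 2.75 ± 0.063 with RANKL (SD, n = 3 each). Incenp over Aurkb averaged 1.34 ± 0.042 with etelcalcetide and 1.59 ± 0.12 with RANKL. Racgap1 over Kif23 averaged 1.40 ± 0.073 with etelcalcetide and 1.36 ± 0.13 with RANKL, and the groups overlapped. With 3 libraries a side the smallest exact two-sided p is 0.1, so the ratios carry no test.

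Other genes of mitosis, also listed by role with earlier results of these data known, were counted in the same fit. Of 169 tested genes outside transport 83 were lower and 8 higher, with a median log2 fold change of -0.22. Without RANKL replicate 1 the counts were 73 lower and 10 higher, and after the GC adjustment 68 lower and 14 higher. Over all genes 27.0% were lower and 26.0% higher. Of 37 other kinetochore genes 23 were lower (62.2%) and 1 higher (median -0.39). Without RANKL replicate 1 these were 18 lower, and after the GC adjustment 17 lower and 2 higher with a median of -0.20. Examples with the smallest adjusted p were Spdl1, which recruits dynein to kinetochores, at 4.76 ± 0.61 FPKM with etelcalcetide and 7.94 ± 0.89 FPKM with RANKL (SD, n = 3 each; adjusted p = 0.000431), Kntc1 at 7.14 ± 0.17 and 10.1 ± 0.89 FPKM, Pmf1 at 18.7 ± 0.79 and 25.0 ± 2.18 FPKM, and Dsn1 at 6.29 ± 0.39 and 8.58 ± 0.41 FPKM. Of the other APC/C and mitotic exit genes 6 of 22 were lower (27.3%), a share near that of all genes, and 3 higher, with a median of -0.09. The GC adjustment gave 5 lower and 4 higher and a median of 0.02. In that list Fbxo5 (Emi1), an APC/C inhibitor, Cdc14b and Anapc4 were lower at log2 fold changes of -0.58, -0.89 and -0.32, and Cdc14a was higher at 0.71.

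Cohesin, securin and separase genes were lower for 8 of 18 (44.4%, against 27.0% of all genes) and higher for 2 (11.1%, against 26.0%). After the GC adjustment 6 were lower and 4 higher, against 25.8% and 24.8% of all genes. The cohesin subunits Rad21 and Smc1a were at -0.44 and -0.46, the cohesin protector Sgo1 was at -0.75, and securin (Pttg1) was higher, at 30.4 ± 1.64 FPKM with etelcalcetide and 23.8 ± 0.92 FPKM with RANKL (log2 fold change 0.27, adjusted p = 0.00355). Of the 3 condensin II subunits Ncapg2 (-0.50) and Ncapd3 (-0.25) were lower and Ncaph2 (0.13) did not pass, and 1 of the 3 was lower without RANKL replicate 1 and after the GC adjustment. Other mitotic kinases and phosphatases were lower for 12 of 20 (60.0%, against 27.0% of all genes) and higher for none. Without RANKL replicate 1 they were lower for 12, and after the GC adjustment for 10. The lower genes included Pbk at -0.81, Nek6 at -0.76, Plk4, which duplicates centrioles, at -0.59 and Cdc25b, which activates Cdk1, at -0.44. Other spindle and cytokinesis genes were lower for 20 of 38 (52.6%, against 27.0% of all genes) and higher for 1. Without RANKL replicate 1 they were lower for 20 and higher for 2, and after the GC adjustment for 18 and 1. Diaph3 was at -0.80, Ckap2 at -0.74, Nedd1 at -0.62 and Kpna2 at -0.46.

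Kinesins outside the 42 were counted by role. Of 7 tested mitotic ones 4 were lower (57.1%, against 27.0% of all genes) and none higher. These were Kif24 at -0.46, Kif2a at -0.32, Kif14 at -0.34 and Kif15 at -0.40. The median of the 7 was -0.32, or -0.17 with 3 lower after the GC adjustment. Of 17 tested kinesins and light chains of cargo transport and signalling 8 were higher (47.1%, against 26.0% of all genes) and 4 lower (23.5%, against 27.0%), with a median of 0.21. With GC content adjusted for, 6 were higher and 4 lower, with a median of 0.099. Kif7, a motor of Hedgehog signalling, averaged 2.69 ± 0.17 FPKM with etelcalcetide and 0.965 ± 0.15 FPKM with RANKL (log2 fold change 1.32, adjusted p = 8.02e-05). It had 57 to 203 reads per library, and 20.3% of its exon length is shared with other genes. Kif13b was higher at 0.68 and Klc2 at 0.53, while Klc4 was lower at -0.79. The difference between the lists was not tested.

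Regulators of late cell cycle transcription were lower for 8 of 24 (33.3%, against 27.0% of all genes) and higher for 1, with a median of -0.14. Adjusted for GC content, 8 were lower and 3 higher. Mybl2 (B-Myb), which with the MuvB core and FOXM1 switches on mitotic genes, had 19.9, 19.2 and 17.9 FPKM with etelcalcetide, against 28.1, 28.7 and 30.2 FPKM with RANKL (log2 fold change -0.69, adjusted p = 3.27e-05). Foxm1 had 24.2, 22.4 and 22.2 FPKM with etelcalcetide, against 27.1, 26.1 and 27.3 FPKM with RANKL (-0.30, adjusted p = 0.00181). The groups did not overlap for either gene. Of the E2F partners, Tfdp1 was at -0.51, and Tfdp2 had 2.81, 2.32 and 2.56 FPKM with etelcalcetide, against 8.24, 6.46 and 6.09 FPKM with RANKL (-1.47, adjusted p = 2.64e-05).

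**Figure D5:**
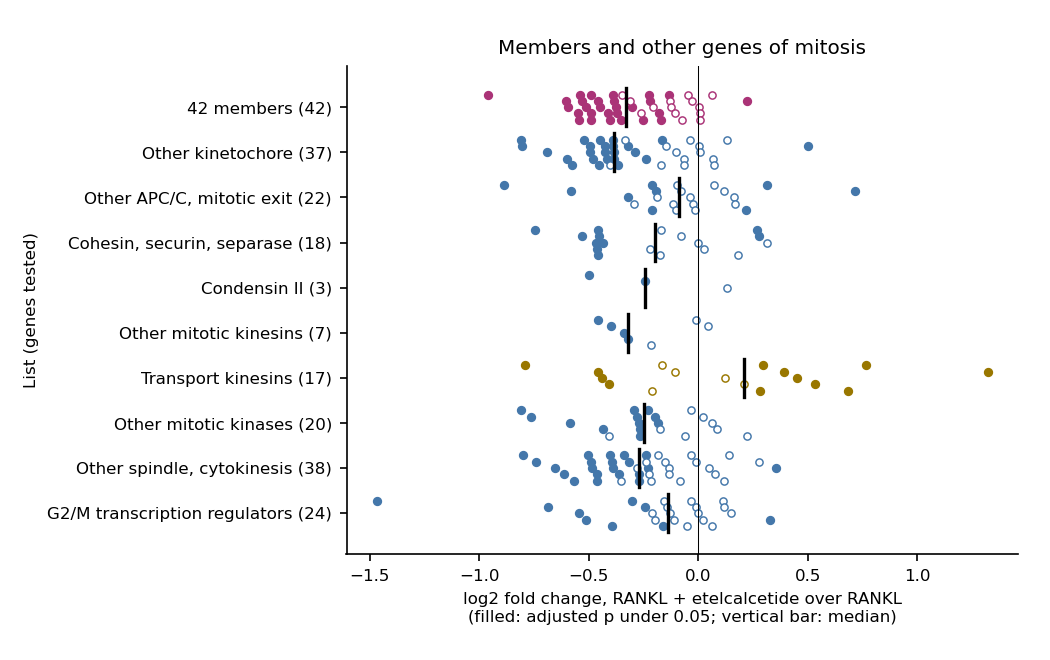
Log2 fold change, RANKL plus etelcalcetide over RANKL, of the 42 genes (top) and of other genes of mitosis by list, with the number tested in brackets. Filled points passed an adjusted p of 0.05, and vertical bars are medians. The medians lie between -0.39 and -0.09 for the other mitotic lists and at 0.21 for transport kinesins.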

How the data were processed

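RNA of 6 libraries was measured by bulk sequencing. The authors deposited 1 table of FPKM values per library. Names in the submitters' processing notes are HISAT2 2.1.0, featureCounts 1.6.0, Trimmomatic 0.38, DESeq2 1.22.1, FastQC, CASAVA and MultiQC, without roles, and the build is named as GRCh38, although all 55536 IDs are those of mouse GENCODE M21. Nothing on strandedness or RNA selection is given in the sources used here. Reads of overlapping genes cannot be told apart, and 7 of the 42 genes share over 5% of their exon length. These are Kif20a (29.3%), Ube2c (22.8%), Kif4 (15.1%), Ncapg (13.4%), Ccna2 (12.5%), Prc1 (11.1%) and Plk1 (7.09%).

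FPKM times merged exon length gave whole reads for 100% of values, within 0.01 reads. These reads served for scaling factors (trimming 30% of M and 5% of A values) and the filter (0.5 FPKM and 10 reads in 3 libraries). The fit used limma 3.58.1 in R 4.3.3 with a term for group alone and a trended prior, and edgeR and DESeq2 were not run. The fit was also run on simulated reads with known fold changes in a small part of the genes. That simulation had no GC trend or replicate effect, so it does not bear on those features of the data. Tables and sequences were handled with Python 3.11.15, pandas 2.3.3 and numpy 2.4.6. Deposited FPKM are printed unscaled, so small differences can depart from the fold change, and the pseudocount understates the change of low genes.

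Groups and replicate numbers came from the sample titles. Replicates in each group differed beyond sampling noise. All 42 genes are named, as are the 4 genes with the smallest adjusted p of each other list (3 where 3 exist). Acp5, Ctsk and Nfatc1 are named too, with the tested osteoclast and macrophage markers that did not pass. Pecam1, Runx2, Bub3, Mad1l1 and Mad2l1bp are named outside these rules, after their values were seen. Sequences are those of 4 regulators and of the extremes by fold change. The genes and lists were chosen with earlier results of these data known. Alternatives covered scaling, filter, pseudocount, prior, voom, a replicate block, each library left out, and GC content (loess span 0.3, added after seeing the data).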

Additional observations from a re-analysis of the deposited data

How the results depend on the processing

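Of the 27 lower calls 17 passed in each of the 16 alternatives (Ccna2, Ccnb1, Bub1, Bub1b, Ttk, Mad2l1, Nuf2, Spc25, Kif20a, Kif23, Kif2c, Kif4, Kif18a, Tpx2, Prc1, Ect2 and Racgap1) and 10 were lost in at least 1. The number of lower genes was 21 with library totals, 29 with upper-quartile scaling, 23 without a filter on low values, 26 with a 1 FPKM filter, 22 with a constant prior variance, 28 with voom and 24 after GC adjustment. Over all genes tested the lower share was 20.4% with library totals, 28.5% with voom, 26.4% with a replicate block and 25.8% after GC adjustment. It was 27.0% in the main fit and is not given here for the other settings. Leaving out 1 library gave 22 to 30 lower and 0 to 1 higher of the 42 genes. Over all genes it gave 2390 to 3000 lower and 2224 to 3064 higher. The 1 higher call, Cenpa, became 0 without the filter and with a constant prior variance. The same-numbered libraries did not deviate together over all genes (correlations 0.07, -0.02 and -0.03), although the 42 genes had their highest median in replicate 1 of both groups, and a replicate block gave 27 lower, with Cdc20 lost (adjusted p = 0.0815) and Ndc80 gained.

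Medians of log2 fold change after GC adjustment were -0.24 for the 42 genes, -0.31 for cyclins and APC/C, -0.28 for kinases, -0.15 for kinetochore genes and -0.27 for spindle and cytokinesis genes. With library totals they were -0.094 for cyclins and APC/C, -0.14 for kinases and 0.0057 for passenger subunits, a change of sign. Over single left-out libraries the medians ran from -0.40 to -0.24 for the 42 genes, -0.46 to -0.19 for kinetochore genes and -0.37 to -0.088 for condensin I with Top2a.

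Sign changes were limited to genes that had not passed. With GC adjustment they were Aurkb (-0.044), Birc5 (0.028), Cdca8 (-0.11), Kif20b (0.14), Smc4 (0.042) and Ncapd2 (-0.14, then called, adjusted p = 0.018, up to 0.98 over its alternatives). With library totals they were Plk1 (0.051), Spc24 (0.030) and Birc5 (0.0057), and with upper-quartile scaling Cenpe (-0.0036), Cdca8 (-0.0037) and Ncapd2 (-0.0082). Over left-out libraries the values ran from -0.083 to 0.0083 for Plk1, -0.096 to 0.024 for Spc24, -0.11 to 0.16 for Cenpe, -0.053 to 0.032 for Cdca8, -0.29 to 0.11 for Kif20b and -0.027 to 0.026 for Ncapd2. The cause of these changes was not tested. Every one of the 42 genes had at least 102 reads in each library, the lowest being Kif18a, so that counting error is largest there.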
